A study of Mus musculus with 12 samples.

Results

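The 7 genes described here are the embryonic and adult globin genes of the mouse that a deposited RNA sequencing table lists by name: Hba-a1, Hba-a2, Hba-x, Hbb-bs, Hbb-bt, Hbb-y and Hbb-bh1, out of 40481 genes. Each symbol matched a single gene ID. The table covers 4 groups of 3 libraries from hematopoietic stem cells (HSCs), the cells from which all blood lineages arise. WT cells and iE/R cells, which carry an inducible ETV6-RUNX1 fusion, were sorted from fetal liver at E14.5 (embryonic day) and from bone marrow at 8 weeks of age. ETV6-RUNX1 joins the genes of a pair of blood transcription factors and is known from childhood B-cell leukemia. All 4 groups spent 3 days in a culture that expands HSCs, with doxycycline at 1 µg/mL, so the WT cells also received the drug. The strain, the promoter of the fusion transgene and how many animals stand behind a library are not given in the sources used here, and p-values therefore measure only the spread between these libraries, which may be technical.

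Hemoglobin carries oxygen as a tetramer of alpha-type and beta-type chains around heme, and red cells make both types in balance. In the mouse, embryonic globins (the zeta chain of Hba-x, the epsilon chain of Hbb-y and the Hbb-bh1 chain) mark the primitive red cells of the yolk sac, and the adult chains (Hba-a1 and Hba-a2; Hbb-bs and Hbb-bt) mark definitive red cells of fetal liver and bone marrow. Stem cells are not hemoglobin producers, and globin RNA in them is low compared with that in a maturing red cell. In bulk RNA, fewer cells of a type and less RNA per cell cannot be told apart.

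The sequences are shown first because they limit which of these genes can be told apart. On GRCm38 the alpha-type genes lie on the plus strand of chromosome 11, in the order Hba-x (32276400 to 32278116), Hba-a1 (32283511 to 32284465) and Hba-a2 (32296489 to 32297298). The beta-type genes lie on the minus strand of chromosome 7: Hbb-y (103851749 to 103853216), Hbb-bh1 (103841637 to 103843164), Hbb-bs (103826534 to 103828096) and Hbb-bt (103812524 to 103813996). Each main transcript has 3 exons. The coding parts of Hba-a1 and Hba-a2 (426 bases without the stop codon) differ by 1 base, C381T, counted from the first coding base and written from Hba-a1 to Hba-a2, and those of Hbb-bs and Hbb-bt (441 bases) differ by C417T, written from Hbb-bs to Hbb-bt. Neither change alters the protein: 0 residues differ within either pair. The stretches around the differing base are printed from the GENCODE M21 transcripts, with that base in capitals.

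Hba-a1, coding bases 351 to 411: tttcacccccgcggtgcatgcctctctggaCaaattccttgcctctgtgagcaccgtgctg
Hba-a2, coding bases 351 to 411: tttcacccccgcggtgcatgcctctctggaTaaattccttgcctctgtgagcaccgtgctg
Hbb-bs, coding bases 387 to 441: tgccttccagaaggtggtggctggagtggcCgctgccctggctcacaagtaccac
Hbb-bt, coding bases 387 to 441: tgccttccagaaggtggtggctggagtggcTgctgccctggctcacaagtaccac

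A 100-base window, the length of a read here, was slid along each transcript. The libraries were sequenced as read pairs, and such a window does not model a pair. It was looked up in all GENCODE M21 transcripts and in the RefSeq promoter windows described below. Of its windows, 75.67% in Hba-a1 and 74.51% in Hba-a2 also occurred in the transcript or promoter window of the other alpha gene. For the adult beta pair these shares were 62.57% in Hbb-bs and 54.8% in Hbb-bt. In transcripts only, 339 of the 600 windows of Hba-a1 were shared, against 454 with promoter windows included. The counts of the other genes did not change. None of the windows of Hba-x, Hbb-y or Hbb-bh1 occurred in another gene. How reads that match both copies were counted is not given in the sources used here, so the split between copies is uncertain, and each pair is also given as a sum. The embryonic genes carry no such uncertainty: the coding part of Hbb-y is 74.38% identical to that of Hbb-bs and 76.42% identical to that of Hbb-bh1.

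**Figure D1:**
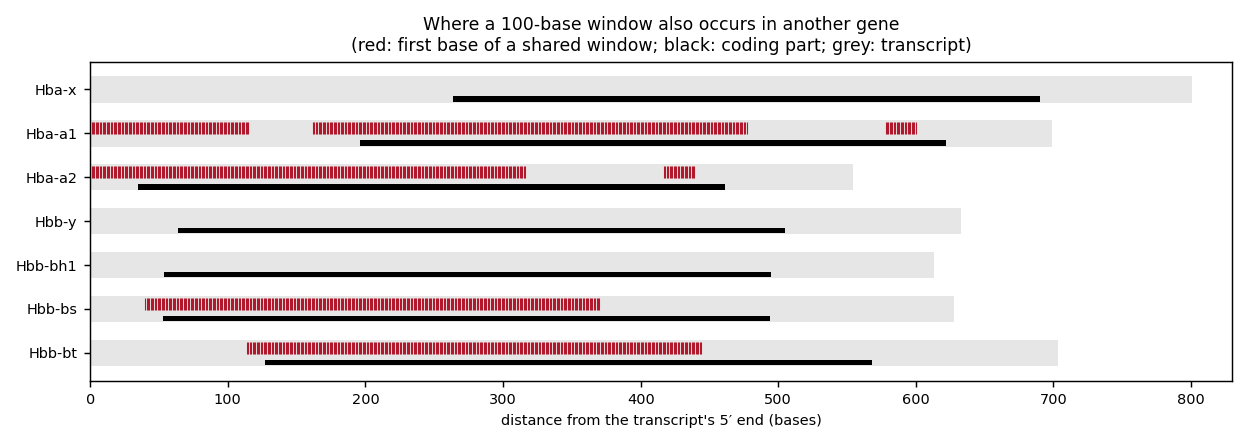
Position along each main transcript (x axis, bases from the 5′ end; rows, the 7 genes) at which a 100-base window also occurs in the transcript or promoter window of another gene (red), with the coding part in black. Most windows of Hba-a1, Hba-a2, Hbb-bs and Hbb-bt are shared with the other copy, and those of Hba-x, Hbb-y and Hbb-bh1 are not.

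RefSeq promoter windows on GRCm38.p6 matched 6 of the 7 genes, all but Hbb-bh1. The RefSeq starts of the genes shown lie inside the GENCODE spans given above. The 120 bases before the start of 4 of them are shown because the genes moved to different extents: Hba-a1 and Hbb-bt as the main adult genes, Hbb-y as the embryonic gene with reads, and Hba-x as the gene without reads. Capitals mark 4 motifs searched on both strands: GATAA (the core of the GATA factor motif), CACCC (bound by KLF factors), CCAAT (the box that NF-Y binds) and a box like TATA with the letters ATAAA. Other letters like TATA were not searched, such as tataa, which the Hba-a1 stretch holds in lower case.

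Hba-a1, chr11:32283552-32283671, plus strand: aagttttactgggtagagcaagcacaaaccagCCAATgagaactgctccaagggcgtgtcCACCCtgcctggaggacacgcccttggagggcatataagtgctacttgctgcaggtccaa
Hba-x, chr11:32276480-32276599, plus strand: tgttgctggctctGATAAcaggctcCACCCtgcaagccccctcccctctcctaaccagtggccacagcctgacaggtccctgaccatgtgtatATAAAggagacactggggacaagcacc
Hbb-bt, chr7:103813924-103814043, minus strand: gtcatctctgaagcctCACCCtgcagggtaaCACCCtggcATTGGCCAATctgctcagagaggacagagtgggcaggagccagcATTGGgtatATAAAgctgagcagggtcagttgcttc
Hbb-y, chr7:103853208-103853327, minus strand: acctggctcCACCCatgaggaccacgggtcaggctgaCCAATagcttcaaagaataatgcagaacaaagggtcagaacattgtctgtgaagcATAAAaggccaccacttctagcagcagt

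Over the whole 250 bases before the start, GATAA was present in 6 of the 6 matched genes, against 23.02% of 27025 mouse promoters. CACCC was present in 6 of 6 (51.3% of all promoters), CCAAT in 5 of 6 (34.46%; Hba-x lacked it) and ATAAA in 3 of 6 (38.13%). The letters TGTGGT, the core of the RUNX motif, and CCGGAA, an ETS motif, were in 0 of 6, against 14.18% and 12.22% of all promoters. The upstream windows of Hba-a1 and Hba-a2 share an unbroken run of 247 of 250 bases, so they are not independent matches. These are letters in a short window and not evidence of binding, and a gene without ATAAA can hold other letters like TATA.

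The libraries held 32.3 to 64.5 M reads. A level is given in CPM (counts per M reads of its library). The detection floor of 3 reads lay at 0.047 to 0.093 CPM. ETV6-RUNX1 bone marrow replicate 2 stood apart from its group in some blood genes: the platelet chemokine gene Pf4 was at 1217 CPM there against 224 and 149 CPM in replicates 1 and 3. The HSC label was compared with 15 genes of stem and progenitor cells, all of which had a mean of at least 1 CPM in all 4 groups. One of them, Cd48, is a surface marker that is low on HSCs and rises in progenitors. It averaged 183 CPM in WT fetal liver and 167 CPM in WT bone marrow, against 21.5 and 40.1 CPM with the fusion, opposite to the sum. The summed level of the 15 was 2442 to 2944 CPM in WT fetal liver, 5126 to 5450 CPM in ETV6-RUNX1 fetal liver, 2766 to 3849 CPM in WT bone marrow and 3892 to 4342 CPM in ETV6-RUNX1 bone marrow. Of hepatocyte genes, the albumin gene Alb did not exceed 0.36 CPM in any library, while Afp was at 13.01 to 36.48 CPM, with its highest value in bone marrow.

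Globin RNA in all groups was almost entirely adult beta globin. Hbb-bt, an adult beta chain gene, made up 89.12% to 92.36% of the reads of the 7 genes in every library. It ranked between 26 and 970 among all genes by CPM. Per kilobase of exon, its mean level was 2291 CPM in ETV6-RUNX1 fetal liver and 1159 CPM in WT fetal liver, while that of Hba-a1 was 18.3 and 0.043 CPM. Hba-x had 0 reads in all 12 libraries, which allows a level of up to 0.047 to 0.093 CPM depending on depth. That floor and the counting intervals below cover counting error only.

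**Figure D2:**
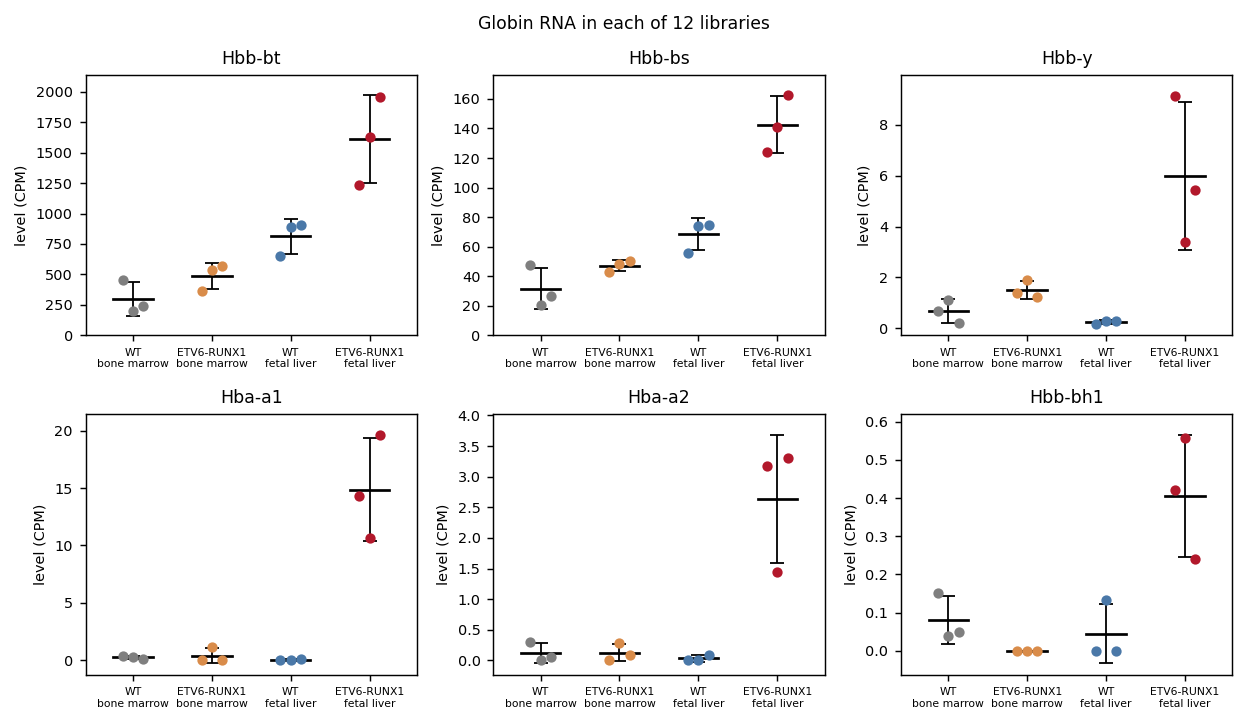
Level in CPM (y axis, linear) of 6 globin genes in each of 12 libraries (points), by group, with the group mean (bar) and SD (whisker). The 3 ETV6-RUNX1 fetal liver libraries lie above all other libraries for each gene shown. How many of all genes separate in this way is not given here. The scales differ, from up to 1961 CPM for Hbb-bt to up to 0.557 CPM for Hbb-bh1. Hba-x, with no reads, is not drawn.

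The adult alpha genes showed the widest contrast. Hba-a1, which encodes the adult alpha chain, was at 14.3, 10.7 and 19.6 CPM in ETV6-RUNX1 fetal liver replicates 1 to 3 and at 0.043, 0 and 0.062 CPM in WT fetal liver. In bone marrow it was at 0.343, 0.273 and 0.050 CPM in WT and at 0, 1.11 and 0 CPM in ETV6-RUNX1 libraries. The ETV6-RUNX1 fetal liver libraries thus stood above all the others without overlap, and the groups of bone marrow overlapped, with all ETV6-RUNX1 bone marrow reads (36) in replicate 2. Hba-a2, the other copy, was at 3.17, 1.44 and 3.30 CPM in ETV6-RUNX1 fetal liver and did not exceed 0.305 CPM in any other library.

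Summed over both alpha copies, ETV6-RUNX1 fetal liver held 2271 reads and WT fetal liver 12, which scaled to library totals is a ratio of 236 (95% counting interval 135 to 458). On the log2(CPM + 1) scale, which understates changes of low genes, the difference was 4.08 ± 0.31 (SE; limma adjusted p = 1.97e-07, n = 3 per group). The exact two-sided permutation test of the sums gave p = 0.1, the smallest that 3 libraries against 3 allow. In bone marrow the sum was 0.340 ± 0.280 CPM (SD, n = 3) in WT and 0.495 ± 0.778 CPM in ETV6-RUNX1 cells, a log2 difference of 0.06 (95% interval -0.60 to 0.72) with a limma adjusted p of 0.911. Without ETV6-RUNX1 bone marrow replicate 2 the estimate turned negative, at -0.34 with an adjusted p of 0.418. The difference between the effects in fetal liver and bone marrow was 4.02 ± 0.44 (SE; interaction, limma adjusted p = 7.90e-05).

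Hba-a1 and Hba-a2 entered the test only through libraries with the fusion, since at least 1 CPM was reached in 4 and 3 libraries. With all 29278 genes with a read tested, the estimates of the alpha genes in fetal liver were still called. Over the 21 alternatives in which the sum was tested, its log2 difference ranged from 3.87 to 7.91. The adjusted p-values (limma, edgeR or DESeq2) were 1.93e-09 to 0.000141. A filter at a mean of at least 5 CPM left out the alpha genes and their sum. Within the alpha reads of the ETV6-RUNX1 fetal liver libraries, Hba-a1 held 81.87%, 88.13% and 85.6%. That split depends on how reads matching both copies were counted, which is not given in the sources used here.

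Of the adult beta genes, Hbb-bt was at 1238, 1633 and 1961 CPM in ETV6-RUNX1 fetal liver and at 648, 888 and 908 CPM in WT fetal liver. The groups did not overlap. In bone marrow Hbb-bt was at 366, 533 and 567 CPM with the fusion and at 456, 196 and 239 CPM in WT. There the groups overlapped, because WT replicate 1 was above ETV6-RUNX1 replicate 1. Hbb-bs, the other adult beta gene, was at 124, 141 and 163 CPM in fetal liver with the fusion and at 55.8, 74.2 and 74.7 CPM without it. Its bone marrow levels were 42.7, 48.1 and 49.9 CPM with the fusion and 47.4, 20.7 and 26.6 CPM in WT.

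Summed adult beta globin was therefore 1.99 times as high in ETV6-RUNX1 as in WT fetal liver by group means (1753 ± 381 against 883 ± 156 CPM, SD, n = 3). The log2 difference was 0.98 ± 0.27 (SE; limma adjusted p = 0.00961). That call was lost when all genes with a read were tested (adjusted p = 0.0514, same estimate). Hbb-bt alone also missed the threshold without ETV6-RUNX1 fetal liver replicate 3, at 0.82 with an adjusted p of 0.0504, against 0.97 with it. In bone marrow the sum was 535 ± 112 against 328 ± 153 CPM, a log2 difference of 0.78 (95% interval 0.20 to 1.36) that did not pass the test (limma adjusted p = 0.0581). Without WT bone marrow replicate 1 it was 1.13 with an adjusted p of 0.00497, and without ETV6-RUNX1 bone marrow replicate 1 it was 0.96 with an adjusted p of 0.0475. The effects in fetal liver and bone marrow differed by 0.20 for the beta sum (95% interval -0.62 to 1.03, limma adjusted p = 0.776), which leaves room for a difference of up to 1.03 in favour of fetal liver.

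Fetal liver cells held more adult beta globin RNA than bone marrow cells in both genotypes. In WT the sum was higher by 1.505 ± 0.27 on the log2 scale (SE; limma adjusted p = 0.00215), and all WT fetal liver libraries (704 to 983 CPM) lay above all WT bone marrow libraries (217 to 503 CPM). In ETV6-RUNX1 cells the difference was 1.71 ± 0.27 (SE; limma adjusted p = 0.000337). Ordered by mean, the groups ran from ETV6-RUNX1 fetal liver through WT fetal liver and ETV6-RUNX1 bone marrow to WT bone marrow, and only the last pair overlapped. Adult alpha globin did not follow that order in WT cells: the alpha sum was 0.066 CPM in fetal liver (12 reads) and 0.340 CPM in bone marrow (52 reads), with overlapping libraries and a limma adjusted p of 0.567.

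The embryonic beta-type genes were also highest in ETV6-RUNX1 fetal liver. Hbb-y, the embryonic epsilon chain gene, was at 9.14, 3.38 and 5.46 CPM there and at 0.173, 0.301 and 0.279 CPM in WT fetal liver. In bone marrow it was at 1.38, 1.92 and 1.24 CPM with the fusion and at 0.686, 1.13 and 0.199 CPM in WT, again without overlap. The means ordered the groups as ETV6-RUNX1 fetal liver, ETV6-RUNX1 bone marrow, WT bone marrow and WT fetal liver, and the libraries of the last pair overlapped.

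The log2 difference of Hbb-y between ETV6-RUNX1 and WT was 2.40 ± 0.28 in fetal liver (SE; limma adjusted p = 1.48e-05), from 805 against 44 reads, a scaled ratio of 22.8 (95% counting interval 16.9 to 31.7). In bone marrow it was 0.62 ± 0.28, from 153 against 102 reads, and did not pass the test (limma adjusted p = 0.137). The difference between these effects was 1.78 ± 0.40 (SE; interaction, limma adjusted p = 0.0133), and it missed the threshold when all genes with a read were tested (adjusted p = 0.0620). Fetal liver exceeded bone marrow for Hbb-y in ETV6-RUNX1 cells, by 1.402 ± 0.28 (limma adjusted p = 0.00211), while in WT cells the estimate was -0.38 ± 0.28 (adjusted p = 0.429).

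Hbb-bh1, an embryonic beta-type gene of primitive red cells, was too low for the main test. It had 20, 31 and 8 reads in the ETV6-RUNX1 fetal liver libraries, 0, 8 and 0 in WT fetal liver, 8, 2 and 2 in WT bone marrow and 0 in all 3 ETV6-RUNX1 bone marrow libraries. Its highest level was 0.557 CPM. When all genes with a read were tested, the fetal liver difference was 0.42 ± 0.08 (SE; limma adjusted p = 0.00392) and that in bone marrow was -0.11 ± 0.08 (adjusted p = 0.483).

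As background to these calls, 43.1% of the 14271 genes tested were called in the fetal liver comparison of ETV6-RUNX1 with WT, 19.4% in the same comparison in bone marrow and 9.19% for the interaction. Between fetal liver and bone marrow, 11.1% were called in WT and 28.6% in ETV6-RUNX1 cells. Against this, 5 of 5 globin genes tested were called in the fetal liver comparison, all higher with the fusion, and 0 of 5 in bone marrow (limma; 3 of 5, namely Hbb-y, Hbb-bs and Hbb-bt, at an unadjusted p under 0.05, and 0 of 5 with edgeR or DESeq2). Hba-a1, Hba-a2 and Hbb-y were called for the interaction. Hbb-bs and Hbb-bt were called between sources in WT, and all 5 in ETV6-RUNX1 cells. Since Hba-a1 and Hba-a2 passed the filter through the fusion libraries, these counts are a description.

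**Figure D3:**
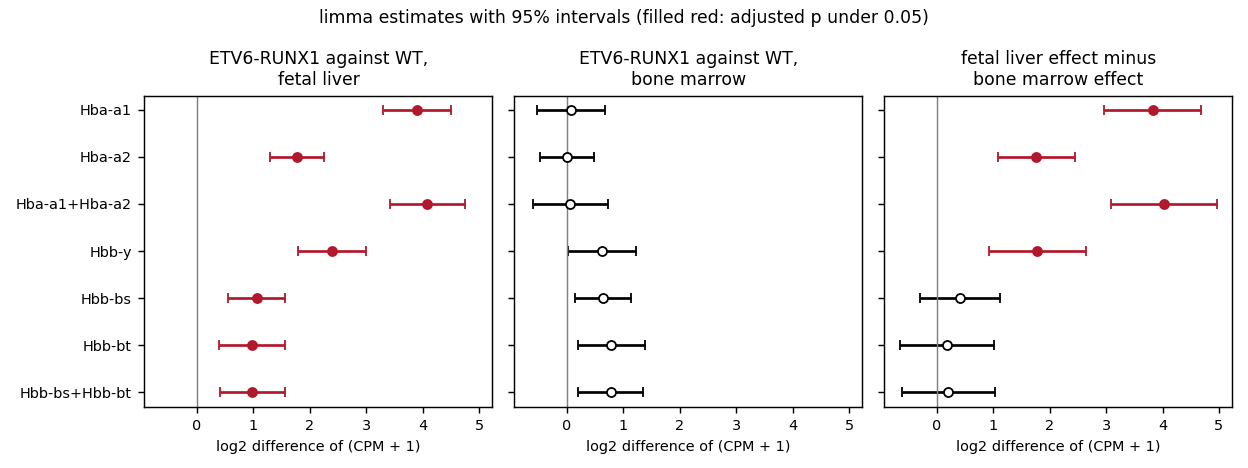
Differences on the log2(CPM + 1) scale (x axis) of 5 globin genes and the sums of near-identical copies, with 95% intervals, in 3 comparisons. Filled red points had a limma adjusted p under 0.05: all in fetal liver, none in bone marrow, and for the interaction the alpha genes and Hbb-y.

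Within a library, ratios between globin genes do not depend on the library total. Alpha reads made up 1.27%, 0.677% and 1.07% of adult globin reads in ETV6-RUNX1 fetal liver and 0.129%, 0.126% and 0.038% in WT bone marrow. With the fusion, bone marrow replicate 2 had a share of 0.239%, and replicates 1 and 3 had 0 and 3 alpha reads. In WT fetal liver the alpha share could be formed in replicate 3 alone, at 0.016%, since the other libraries had 2 and 0 alpha reads. With 1 read added to both parts, the means were 1.01% with the fusion and 0.0094% in WT fetal liver, without overlap (exact permutation p = 0.1, the smallest possible). In bone marrow they were 0.0903% with the fusion and 0.105% in WT, with overlap (exact permutation p = 0.8). Beta globin thus exceeded alpha globin 100-fold as counted in ETV6-RUNX1 fetal liver. The excess was 55.7-fold when each sum was divided by its number of windows in 1 gene only (262 for alpha and 471 for beta). Promoter windows were part of that search. Dividing in this way assumes that reads matching both copies were not counted, which is not given in the sources used here.

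The embryonic share of beta-type reads (Hbb-y and Hbb-bh1 among all beta-type reads) was 0.697%, 0.221% and 0.268% in ETV6-RUNX1 fetal liver and 0.025%, 0.045% and 0.028% in WT fetal liver. These groups did not overlap (exact permutation p = 0.1). In WT bone marrow the share was 0.166%, 0.536% and 0.094%, and in ETV6-RUNX1 bone marrow 0.336%, 0.329% and 0.200%, which overlap (exact permutation p = 0.9). WT fetal liver therefore had the lowest embryonic share of the 4 groups, below every WT bone marrow library (exact permutation p = 0.1). The embryonic level itself overlapped, at 0.173 to 0.435 CPM in WT fetal liver and 0.249 to 1.17 CPM in WT bone marrow (exact permutation p = 0.3). Adult beta globin, the larger part of the denominator, averaged 883 and 328 CPM in these groups. The part of Hbb-bs in adult beta reads stayed between 7.604% and 10.46% in every library and between 7.006% and 9.663% per kilobase of exon.

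**Figure D4:**
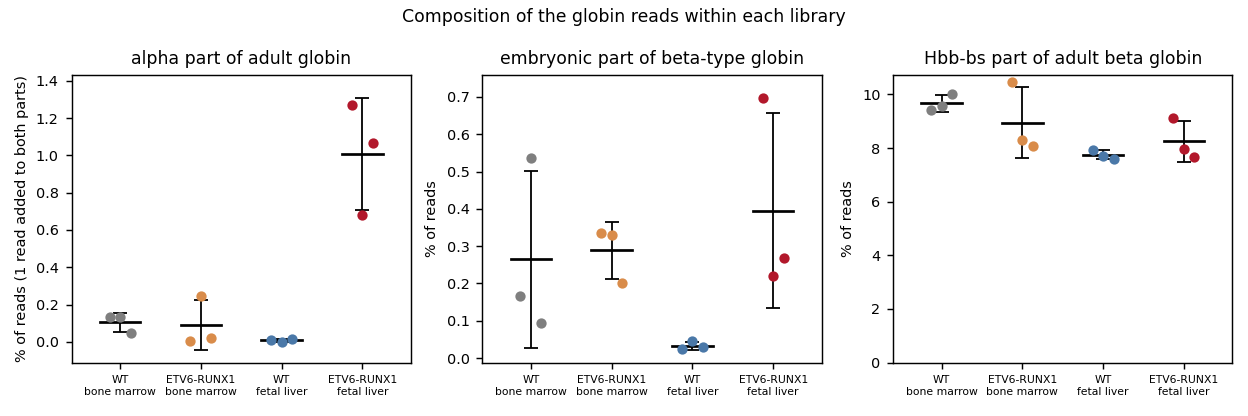
Percent of globin reads within each library (points; bars, mean; whiskers, SD): alpha among adult globin reads with 1 read added to both parts, embryonic among beta-type reads, and Hbb-bs among adult beta reads. ETV6-RUNX1 fetal liver has the highest alpha share (mean 1.01%), and WT fetal liver the lowest embryonic share (mean 0.0327%).

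Genes that govern globin transcription were examined from a list of 14. In fetal liver, 6 were higher and 1 lower with the fusion (median log2 difference 0.40, against 0.08 over all genes tested), and in bone marrow 4 were higher and 1 lower (0.30 against 0.13). With edgeR the fetal liver split was 5 higher and 4 lower. Gata1, the master regulator of red cell and megakaryocyte genes, was at 237 ± 36.3 CPM with the fusion and at 91.7 ± 14.51 CPM in WT cells of fetal liver (SD, n = 3; limma log2 difference 1.36, adjusted p = 0.00308). In bone marrow it was lower with the fusion, at 16.5 ± 11.1 against 36.3 ± 6.11 CPM (limma adjusted p = 0.0133; 0.0507 without ETV6-RUNX1 bone marrow replicate 1 and 0.0610 with all genes with a read tested). Gata1 and the alpha sum both differed between the sources in their response to the fusion, Gata1 by 2.62 ± 0.44 (interaction, limma adjusted p = 0.00232). Of all genes tested, 9.19% were called for the interaction, and a link between Gata1 and the alpha genes was not tested.

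Klf1, the factor that drives adult beta globin in maturing red cells, was close to absent: it lay between 0.030 and 1.46 CPM in all libraries. In fetal liver its means were 0.175 CPM with the fusion and 0.654 CPM without, a difference that did not pass the test (limma adjusted p = 0.113). It was called lower in 6 of 21 alternatives, among them edgeR (-1.92, adjusted p = 0.0359), DESeq2 (-1.93, adjusted p = 0.0261), quantile normalization (adjusted p = 0.0184) and the fit without ETV6-RUNX1 bone marrow replicate 2 (adjusted p = 0.0413). Lmo2, a bridging partner of GATA1, rose by 0.64 in fetal liver and 0.83 in bone marrow (limma adjusted p = 0.00291 and 0.00204). Nfe2, whose product binds globin enhancers, rose by 0.58 in fetal liver (adjusted p = 0.00158). Runx1 rose by 0.90 in fetal liver and 0.81 in bone marrow (limma adjusted p = 0.000153 and 0.00178), but whether reads of the fusion transcript count towards it is not given in the sources used here.

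Among 15 repressors and developmental regulators of globin genes, 14 were tested. The share called over all genes tested was 43.1% in fetal liver and 19.4% in bone marrow. In fetal liver 6 were higher and 1 lower with the fusion, and in bone marrow 5 were higher and 0 lower (2 higher without ETV6-RUNX1 bone marrow replicate 2; 4 higher and 2 lower with DESeq2). Bcl11a, a repressor of embryonic beta-type globin genes, was higher with the fusion in both sources: 101 ± 20.9 against 57.4 ± 12.8 CPM in fetal liver (limma adjusted p = 0.00625) and 114 ± 27.4 against 62.1 ± 6.72 CPM in bone marrow (adjusted p = 0.0133; 0.0514 and 0.0645 without ETV6-RUNX1 bone marrow replicates 1 and 2). Igf2bp1, a fetal RNA-binding protein, had a fetal liver mean of 47.7 CPM with the fusion and of 17.3 CPM in WT cells (log2 difference 1.45, limma adjusted p = 0.000303) and under 0.4 CPM on average in both bone marrow groups. The nuclear factors Nfia and Nfix rose in fetal liver by 0.88 and 0.66 and in bone marrow by 0.53 and 0.77 (limma adjusted p = 0.000792, 0.00367, 0.0396 and 0.00478). The bone marrow call of Nfia was lost in 11 of 22 alternatives, where the adjusted p reached 0.171 (without ETV6-RUNX1 bone marrow replicate 1).

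Heme synthesis genes did not rise as a group with globin RNA. Of 12, 11 were tested: in fetal liver 2 were higher and 4 lower with the fusion (median log2 difference -0.25, against 0.08 over all genes), and in bone marrow 0 were higher and 1 lower. Alas2, the red cell form of the enzyme that starts heme synthesis, did not exceed 0.866 CPM in any library and was not tested. Alas1, the form used by other cells, rose by 0.58 in fetal liver (limma adjusted p = 0.00165), as did Slc25a38, a mitochondrial glycine carrier, by 0.81 (adjusted p = 0.00152). Alad, which catalyses the next step of the pathway, fell by 0.82 (limma adjusted p = 0.000406). On the side of heme breakdown, Hmox1, which degrades heme, rose in fetal liver by 1.93 and in bone marrow by 1.46 (limma adjusted p = 6.20e-06 and 0.000506). Bach1, a heme-sensing repressor of Hmox1 and of globin genes, rose by 0.76 in fetal liver (adjusted p = 0.00499), and Blvrb, which acts after heme oxygenase, by 0.60 (adjusted p = 0.0239). The call of Blvrb was lost in 8 of 22 alternatives, where the adjusted p reached 0.127 (without WT fetal liver replicate 2). Of the 10 genes in that list, 9 were tested and 3 were higher and 0 lower in fetal liver. Ahsp, which encodes the chaperone of free alpha chains, was not analysed here.

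Of 20 red cell membrane and late erythroid genes, 12 were tested. In fetal liver 6 were higher and 3 lower with the fusion (median log2 difference 0.43, against 0.08 over all genes), and in bone marrow 0 were higher and 3 lower. Rhag, a membrane protein of the Rh complex, was at 21.6, 21.1 and 15.8 CPM in the fetal liver libraries with the fusion and at 2.62, 2.04 and 3.46 CPM in those without it (limma log2 difference 2.47, adjusted p = 3.85e-06). In bone marrow it was lower with the fusion, by a log2 difference of -1.02 (limma adjusted p = 0.0128; 0.0540 without WT bone marrow replicate 3 and 0.0556 with all genes with a read tested). Sptb, beta spectrin of the membrane skeleton, averaged 11.4 ± 1.39 against 2.23 ± 0.689 CPM in fetal liver (limma log2 difference 1.95, adjusted p = 0.000124) and did not exceed 1.67 CPM in bone marrow. Levels within the list ranged widely. Slc4a1, the anion exchanger band 3, did not exceed 0.360 CPM, and Car1, a carbonic anhydrase of red cells, had no read in the ETV6-RUNX1 libraries. Epb41, a protein of the membrane skeleton that other cells also make, averaged 181 CPM in fetal liver with the fusion against 95.3 CPM without it (limma adjusted p = 0.00173). Car2, a widespread carbonic anhydrase, had group means of 1027 to 2369 CPM. Hemgn, an erythroid nuclear protein, fell by 3.12 in fetal liver and by 1.80 in bone marrow (limma adjusted p = 6.41e-06 and 0.00282).

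**Figure D5:**
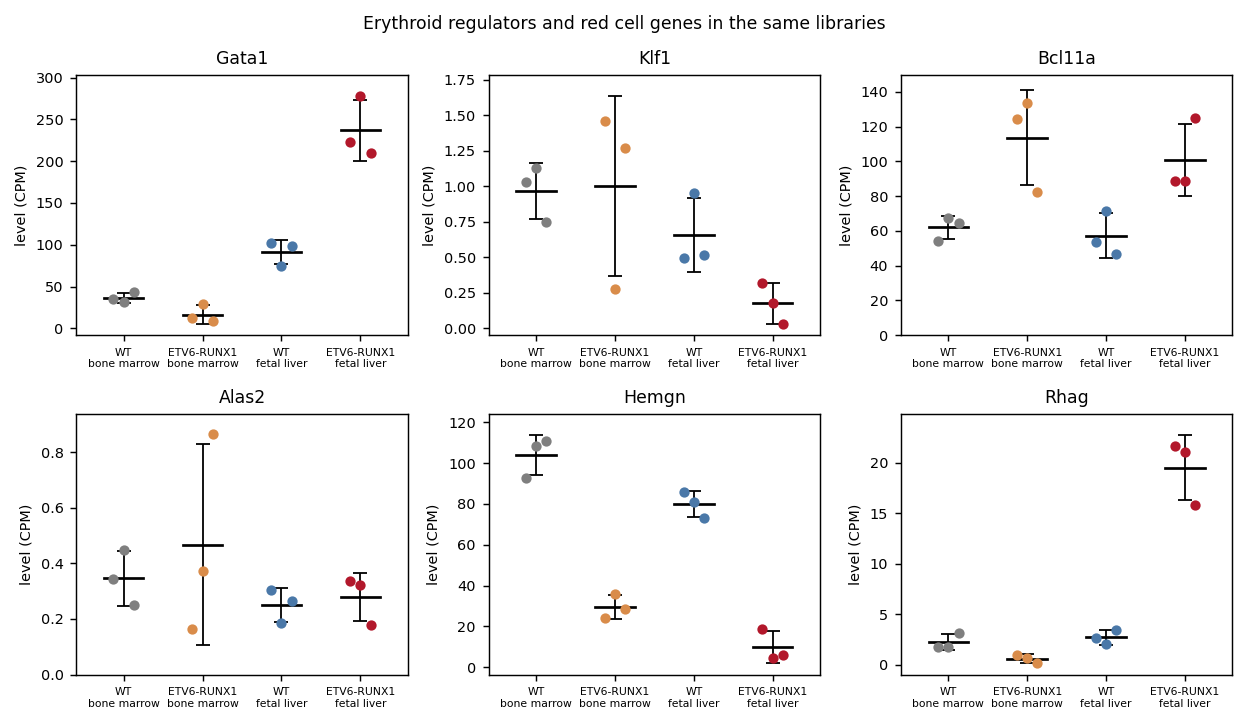
Level in CPM (y axis, linear) of 6 erythroid regulators and red cell genes in each library (points; bars, mean; whiskers, SD). Gata1 and Rhag were highest and Hemgn lowest in ETV6-RUNX1 fetal liver, whereas Klf1 (at most 1.46 CPM) and Alas2 (at most 0.866 CPM) were low in all 12 libraries.

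Of 12 genes for the erythropoietin receptor and iron uptake, 11 were tested. With the fusion, 5 were higher and 3 lower in fetal liver, against 2 higher and 1 lower in bone marrow. Over all genes tested, 43.1% and 19.4% were called. The median log2 differences of the list were 0.27 and 0.06, against 0.08 and 0.13 over all genes. The bone marrow split turned to 1 higher and 3 lower with median-of-ratios scaling, quantile normalization or edgeR, and to 2 and 2 with DESeq2. Epor, the erythropoietin receptor, was at 53.8 ± 7.17 against 24.9 ± 0.876 CPM in fetal liver (limma log2 difference 1.08, adjusted p = 0.000129). Its kinase partner Jak2 rose by 1.18 (adjusted p = 3.40e-05). Tfr2, an iron-sensing receptor, fell by 1.58 (limma adjusted p = 8.02e-05).

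Genes beside the alpha cluster were followed because the alpha enhancers lie within introns of a neighbour, Nprl3. Of 8 neighbours 7 were tested, with 4 higher and 0 lower in fetal liver (3 and 0 with edgeR or quantile normalization). In bone marrow 0 were called with limma, edgeR or DESeq2. Over all genes tested, limma called 43.1% in fetal liver and 19.4% in bone marrow. In fetal liver Nprl3 itself averaged 50.0 ± 4.98 CPM with the fusion and 28.0 ± 2.40 CPM without it (limma log2 difference 0.81, adjusted p = 0.000703). It overlaps Mpg on the opposite strand, and whether strand was used in counting is not given in the sources used here. Hbq1b, a theta globin gene next to Hba-a2, was at 2.5, 2.64 and 4.41 CPM in ETV6-RUNX1 fetal liver and at most 0.186 CPM elsewhere, so that it passed the filter through those 3 libraries alone (limma log2 difference 2.02, adjusted p = 1.60e-06). Sh3pxd2b, at the far end of the neighbourhood, rose by 0.89 (adjusted p = 0.00555). Among the other globins, Cygb, which encodes cytoglobin of non-blood cells, rose in both sources, by 1.52 in fetal liver and 1.56 in bone marrow (limma adjusted p = 6.38e-05 and 0.000375), and stayed under 2.9 CPM. The other globins together summed to at most 0.4 CPM in any WT library. Cygb therefore passed the filter through libraries with the fusion alone.

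Genes of other lineages also differed between genotypes in fetal liver, where 43.1% of all genes tested were called (19.4% in bone marrow). Summed over 12 megakaryocyte genes, the level was 8694 to 9930 CPM in ETV6-RUNX1 fetal liver, 3414 to 5102 CPM in WT fetal liver, 1471 to 1978 CPM in WT bone marrow and 509.9 to 2321 CPM in ETV6-RUNX1 bone marrow, where replicate 2 was the highest. None of the 12 was at 0 in all libraries, 12 were tested, and 8 were higher and 1 lower with the fusion in fetal liver (5 and 1 with edgeR, 4 and 1 with DESeq2). In bone marrow 0 were higher and 1 lower (1 and 1 with edgeR or DESeq2). Between sources in WT cells, 8 were higher and 0 lower in fetal liver (11.1% of all genes tested were called). In that comparison the beta sum was called higher (limma adjusted p = 0.00215), and the alpha sum and Hbb-y were not called. Between sources in ETV6-RUNX1 cells, 12 were higher and 0 lower in fetal liver (28.6% of all genes). All 5 globin genes tested were called higher there. In fetal liver the 12 macrophage genes summed to 125.5 to 149.3 CPM with the fusion and to 40.95 to 48.29 CPM in WT libraries. Of these 6 were tested, and 5 were higher and 0 lower with the fusion in fetal liver (median log2 difference 1.68; 5 and 1 with edgeR or DESeq2). Cd68, a lysosomal protein of macrophages and other blood cells, made up most of the sum, at 105 against 43.5 CPM. C1qa had no read in any fetal liver library, and Adgre1 did not exceed 1.56 CPM. The part of either list in the globin levels was not tested.

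The genes whose pattern over the 12 libraries was most like summed alpha globin, by Pearson r of log2(CPM + 1), were P2ry12 (0.990), Mlip (0.985), Myl9 (0.982), Apod (0.982) and Ifnb1 (0.981). All 5 had means under 1 CPM outside ETV6-RUNX1 fetal liver, where for example P2ry12, a platelet and microglial nucleotide receptor, had a mean of 11.95 CPM and Myl9, a myosin light chain, one of 69.8 CPM. Those most like Hbb-y were Samhd1 (0.970), Themis2 (0.969), Creb3 (0.964), Lpl (0.962) and Ccl3 (0.961). Samhd1, a nucleotide hydrolase that limits viruses, had means of 337, 131, 73.3 and 64.8 CPM in ETV6-RUNX1 fetal liver, ETV6-RUNX1 bone marrow, WT bone marrow and WT fetal liver, the order seen for Hbb-y. Between members, the alpha sum had an r of 0.909 with Hbb-y and 0.742 with the beta sum. With 4 groups of 3, such values mostly follow the group means and are a description.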

How the data were processed

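Gene expression was read from a single table of CPM values that the authors deposited, with a column for each of 12 libraries. Per the submitters' processing notes, the tools were bcl2fastq, STAR 2.5.1a, Subread, featureCounts 1.4.6-p5, Salmon 0.8.2, edgeR and limma, with the build GRCm38, and no role or setting is given for any of them. Per the labels' protocols, total RNA was made into stranded libraries from small inputs and sequenced as read pairs. All CPM values (100%, within a tolerance of 0.01) were whole multiples of a step, so whole reads were recovered. Genes with 4 reads were 1.32 to 2.28 times as many as genes with 3 in every library. Even counts are thus in excess, and counting intervals would be too narrow if both mates of a pair were counted.

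Repeated entries of a gene ID (276 of 40757) were dropped. The 14271 genes that reached 1 CPM in 3 or more libraries were tested with limma 3.58.1 (R 4.3.3) on log2(CPM + 1), with a mean-variance trend, a coefficient per group, 8 residual degrees of freedom, two-sided tests and Benjamini-Hochberg adjustment over all genes tested; a call is an adjusted p under 0.05. The fit was repeated with near-identical copies replaced by their sums. edgeR 4.0.16 and DESeq2 1.42.0 ran on recovered reads as alternatives; in the fetal liver comparison they called 6178 and 6540 genes, against 6151 with limma. On simulated counts for the fetal liver comparison (14271 genes, 200 changed 4-fold), 99% of the changed genes were recovered and 7 others were called. The simulation used the same spread setting for every gene, so recovery of low genes in the measured libraries may differ.

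The named list genes are at most 3 per list called in either comparison with WT, by smallest p, plus Gata1, Klf1, Bcl11a, Alas2, Ahsp, Slc4a1 and Nprl3; some genes of the red cell list are not reported here. Pf4, Cd48, Alb, Afp, Car1, Car2, Epb41, C1qa, Cd68, Adgre1 and Mpg were named after their values were seen. The members and lists were chosen with earlier results of these data known. Other lists were compared with the fusion in fetal liver, where 43.1% of all genes tested were called. Of 3 granulocyte genes tested, 0 were higher and 2 lower. The counts were 0 and 1 of 4 lymphocyte genes, 1 and 2 of 4 mast cell genes, and 0 and 1 of 4 hepatocyte genes.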

Additional observations from a re-analysis of the deposited data

Results flagged for a closer look

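The response to the fusion differed between fetal liver and bone marrow for the alpha genes and Hbb-y, by a test of the difference itself (interaction in limma, Benjamini-Hochberg adjusted over all genes tested). The value was 3.82 for Hba-a1 (adjusted p = 6.13e-05), 1.76 for Hba-a2 (adjusted p = 0.00343), 4.02 for their sum (adjusted p = 7.90e-05) and 1.78 for Hbb-y (adjusted p = 0.0133), on the log2(CPM + 1) scale. All 3 ETV6-RUNX1 fetal liver libraries lay above all 3 WT fetal liver libraries for each of these. How many of all genes separate in this way is not given here, and 43.1% of the genes tested were called in that comparison. Only 48 alpha reads in ETV6-RUNX1 bone marrow and 52 in WT bone marrow stand behind the bone marrow side, and 45 of the former are in replicate 2. With DESeq2 the value for Hba-a2 no longer passed (adjusted p = 0.0952). With all genes with a read tested, that for Hbb-y no longer passed (limma adjusted p = 0.0620). Hba-a1 and Hba-a2 entered the main test only through libraries with the fusion.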

How the results depend on the processing

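With 3 libraries a group and few alpha or embryonic reads, changes near 0 in bone marrow could not be resolved. In fetal liver and for the interaction, the alpha sum kept its direction and its call under every alternative that tested it. The filter at a mean of at least 5 CPM left it out. The cause of each change below was not tested unless the setting itself shows it. Quantile normalization moved the median over all genes in the fetal liver comparison from 0.08 to -0.10 and the share of calls that were higher from 57.6% to 42.0%; in bone marrow that share went from 74.5% to 48.5%.

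For the alpha sum in bone marrow the estimate was -0.32 with a pseudocount of 0.1 and -0.022 with quantile normalization, and without 1 library it ranged from -0.34 to 0.29. For Hba-a1 it was -0.34 with a pseudocount of 0.1, and -0.28 to 0.26 without 1 library. For Hba-a2 it was -0.0095 with median-of-ratios scaling, -0.0019 with quantile normalization, -0.19 with edgeR and -0.14 with DESeq2, and -0.087 to 0.13 without 1 library. Between sources in WT cells, Hba-a2 without 1 library ranged from -0.18 to 0.0077.

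The beta sum lost its fetal liver call with all genes with a read (0.98). In bone marrow it gained a call with quantile normalization (0.88) and array weights (0.99), and ranged from 0.53 to 1.13 without 1 library. Its interaction was -0.23 and that of Hbb-bt -0.25 with array weights; without 1 library they ranged from -0.15 to 0.45 and from -0.17 to 0.43. The difference in the embryonic share of beta-type reads, leaving out 1 library, ranged from -0.063 to 0.16 percentage points between genotypes in bone marrow and from -0.044 to 0.19 between sources in ETV6-RUNX1 cells.

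Genes called for the interaction numbered 767 with all genes with a read, 3637 with array weights and 731 to 2332 without 1 library, against 1311. Between sources in WT cells array weights called 4401, and leaving out 1 library 868 to 2781, against 1591. In bone marrow 1601 were called with only the 6 libraries compared, and 1520 to 2924 without 1 library, against 2763.

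In bone marrow, Alas1 turned to -0.027, -0.021 and -0.012 and Nprl3 to -0.071, -0.061 and -0.053 with median-of-ratios scaling, edgeR and DESeq2, and with quantile normalization Nprl3 was -0.10 and Sh3pxd2b -0.032. Klf1 was 0.011 with array weights, and Sptb was -0.40 with a pseudocount of 0.1, -0.015 with median-of-ratios scaling, -0.044 with quantile normalization and -0.0034 with array weights. None of these was called. Without 1 library, the bone marrow estimate ranged from -0.38 to 0.31 for Sptb, from -0.014 to 0.21 for Nprl3 and from -0.20 to 0.27 for Klf1.

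Replicate block: same-numbered libraries deviated together with correlations from -0.44 to 0.39, over 0.1 in 7 of 18 pairs. Whether same-numbered libraries were handled together is not given in the sources used here, and these few correlations cannot settle it. With the block, 5838 genes were called in fetal liver, against 6151, and the alpha sum kept 4.08 (adjusted p = 2.73e-06).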
